A study of Mus musculus with 8 samples.

Results

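Vitamin A (retinol) acts on cells through retinoic acid. Retinol enters through the membrane receptor Stra6 and is oxidised to retinal by the dehydrogenase Rdh10, while Dhrs3 reduces retinal back to retinol. Retinal is oxidised to retinoic acid by Aldh1a2, the cytoplasmic binding protein Crabp2 carries retinoic acid to the nucleus, and the receptors Rara, Rarb and Rarg bind it there as partners of Rxra. In skeletal muscle cultures retinoic acid is known to promote differentiation of myoblasts.

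These 9 genes, out of 42391 gene entries in the count matrix, were examined by symbol for their levels and their change after Septin9 siRNA. They were chosen because Crabp2 and Dhrs3 were higher in Septin9-deficient cells of both types, so their values after siRNA are given as a description, without p-values, and nothing is read from which of them passed the study's thresholds. RNA was sequenced from C2C12 cells, a mouse myoblast line, and from primary myoblasts grown from the hindlimbs of 5-week-old mice, with 2 replicates of each combination of cell type and siRNA, 8 samples in all. Septin9-deficient cells had been transfected with an siRNA to Septin9, which for C2C12 cells was at 50 nM, and control cells with one that has no target. C2C12 cells were collected 60 h after transfection, of which the last 12 h were in differentiation medium, and primary myoblasts were collected after 48 h in proliferation medium. The cell types therefore also differed in medium, time and stage, and these cannot be told apart from the cell type. Primary myoblasts had been plated briefly on collagen to deplete fibroblastic cells, and the animals behind each replicate are not given in the sources used here.

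Between 20898611 and 27223414 reads were counted on genes per sample. Septin9 was at 409 and 435 CPM (read counts relative to the library size, scaled by TMM over all samples) in control C2C12 cells and at 147 and 185 CPM in Septin9-deficient ones. In primary myoblasts it was at 375 and 473 CPM in controls and at 208 and 159 CPM after siRNA. Each of 7 myoblast markers was detected in every sample. The summed level of 8 markers of differentiating myocytes was 97.7 to 248 CPM over the C2C12 samples and 3203 to 17230 CPM over the primary myoblasts, although the latter were labelled as proliferating. After Septin9 siRNA, 6 of these 8 markers passed the test as higher for C2C12 cells, beside 0.828% of all genes, and 8 of 8 for primary myoblasts, beside 2.87%. Their part in the values below was not tested. In RNA from whole cultures, a smaller share of expressing cells and less RNA per cell cannot be told apart.

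Retinoic acid receptors bind DNA at repeats of a short core motif, and the promoters of Rarb and Cyp26a1, which encodes a retinoic acid hydroxylase, are textbook examples. In the RefSeq promoter windows of GRCm38.p6, which run from 250 bases before to 50 bases after a start, both strands were searched for 2 copies, in the same orientation, of the core motif AGGTCA, the variant AGTTCA, the variant GGGTCA or the variant GGTTCA, separated by 1, 2 or 5 bases. Windows were found for 7 of the 9 genes, with none for Crabp2 and Rdh10, and for 39 of 53 other retinoid genes. A repeat with a spacing of 5 bases was found for Rarb, beginning 53 bases before the start, and for Cyp26a1, beginning 32 bases before it on the opposite strand. Bco1, a carotenoid-cleaving enzyme, had a repeat with a spacing of 1 base, beginning 56 bases before the start on the opposite strand. A repeat with a spacing of 5 bases was present in 0.0974% of 32851 windows, and a repeat with any of the spacings in 0.588%. Rarb and Cyp26a1 were known examples, and the variants searched include their core motifs, so nothing is read from finding these repeats. No such repeat was found in the windows of Dhrs3, Rara, Rarg, Rxra, Aldh1a2 and Stra6. The 100 bases before the start are shown for both genes with the repeat, in capitals, and for Dhrs3, which has none in this stretch. The coordinates are chr14:16575477-16575576 on the minus strand for Rarb, chr19:37697708-37697807 on the plus strand for Cyp26a1 and chr4:144892727-144892826 on the plus strand for Dhrs3.
Rarb: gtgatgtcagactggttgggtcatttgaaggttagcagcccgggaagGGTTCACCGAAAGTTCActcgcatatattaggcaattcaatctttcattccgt
Cyp26a1: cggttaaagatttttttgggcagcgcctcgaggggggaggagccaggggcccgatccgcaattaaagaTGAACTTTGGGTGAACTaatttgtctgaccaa
Dhrs3: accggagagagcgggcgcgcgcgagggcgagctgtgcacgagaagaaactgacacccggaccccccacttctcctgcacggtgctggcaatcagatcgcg

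Crabp2, the carrier of retinoic acid, and Dhrs3 were chosen for their increase after Septin9 siRNA. Crabp2 (chr3:87948693-87953372, plus strand, GRCm38.p6) was at 25.8 and 29.2 CPM in control C2C12 cells and at 58.8 and 47.3 CPM in Septin9-deficient ones. In primary myoblasts it was at 9.06 and 3.49 CPM in controls and at 14.1 and 7.58 CPM after siRNA. In C2C12 cells both Septin9-deficient samples lay above both controls, whereas in primary myoblasts the Septin9-deficient replicate 2 was below the control of replicate 1. Within replicate pairs the ratio of Septin9-deficient to control was above 1 each time, with log2 values of 1.18 and 0.70 for C2C12 cells and of 0.63 and 1.10 for primary myoblasts. The fitted log2 fold change of Crabp2 was 0.93 (SE 0.090) for C2C12 cells and 0.85 (SE 0.18) for primary myoblasts.

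Dhrs3 (chr4:144892534-144928209, plus strand), which returns retinal to retinol, was at 32.1 and 50.9 CPM in control C2C12 cells and at 69.9 and 79.9 CPM in Septin9-deficient ones, without overlap. In primary myoblasts Dhrs3 was at 14.2 and 2.04 CPM in controls and at 25.8 and 8.25 CPM after siRNA. The groups overlapped there, since the Septin9-deficient sample of replicate 2 lay below the control of replicate 1. Pair log2 ratios of Dhrs3 were 1.12 and 0.65 for C2C12 cells and 0.86 and 1.97 for primary myoblasts. The fitted log2 fold change was 0.87 (SE 0.086) for C2C12 cells and 1.28 (SE 0.21) for primary myoblasts. Without replicate 1 it was 2.02 in primary myoblasts, and without replicate 2 it was 0.86.

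Stra6 (chr9:58063793-58154004, plus strand), the retinol uptake receptor, was high after siRNA in C2C12 cells, with 2.59 and 4.08 CPM in controls against 6.94 and 6.01 CPM in Septin9-deficient cells. In primary myoblasts Stra6 had 33 and 17 counts in controls and 46 and 12 counts after siRNA, so the pairs went in opposite directions. The log2 fold change of Stra6 was 0.95 (SE 0.21) for C2C12 cells and 0.29 (SE 0.37) for primary myoblasts. Without replicate 1 it was 0.56 for C2C12 cells and -0.13 for primary myoblasts, and without replicate 2 it was 1.42 and 0.53. Rdh10 (chr1:16105882-16132550, plus strand), the retinol dehydrogenase, was at 24.0 and 26.7 CPM in control C2C12 cells and at 27.8 and 30.5 CPM in Septin9-deficient ones. In primary myoblasts Rdh10 was at 5.11 and 7.92 CPM in controls and at 7.34 and 12.2 CPM after siRNA. Its pair log2 ratios were close within each cell type, at 0.21 and 0.19 for C2C12 cells and 0.52 and 0.61 for primary myoblasts.

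Aldh1a2 (chr9:71215789-71296243, plus strand), which makes retinoic acid, had 2 to 5 counts in each C2C12 sample and was left out of the C2C12 fit by the filter on low counts. In primary myoblasts Aldh1a2 was at 0.94 and 0.98 CPM in the control and Septin9-deficient samples of replicate 1, and at 10.7 and 15.4 CPM in those of replicate 2. The replicate thus set the level of Aldh1a2, and its log2 fold change after siRNA was 0.44 (SE 0.21).

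Among the receptors, the pair log2 ratios of Rara, Rarg and Rxra lay between -0.13 and 0.31. Rara (chr11:98927800-98974942, plus strand) lay between 42.3 and 46.9 CPM over the 4 C2C12 samples and between 35.7 and 44.2 CPM over the 4 primary myoblast samples. The primary myoblast pairs of Rara went in opposite directions, with log2 ratios of -0.13 and 0.31. Rarg (chr15:102234938-102257522, minus strand) was at 185 and 216 CPM in control and at 218 CPM in both Septin9-deficient C2C12 samples, with a log2 fold change of 0.12 (SE 0.068). In primary myoblasts Rarg was at 32.2 and 38.4 CPM in controls and at 31.5 and 38.2 CPM after siRNA, a log2 fold change of -0.02 (SE 0.11). Rxra (chr2:27676445-27763319, plus strand), the shared partner of these receptors, had log2 fold changes of -0.03 for C2C12 cells and 0.07 for primary myoblasts. Its C2C12 replicates differed more than siRNA and control, with 74.5 and 76.4 CPM in the samples of replicate 1 and 103 and 97.0 CPM in those of replicate 2.

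Rarb (chr14:16430839-17082331, minus strand), whose promoter holds the repeat shown above, was the lowest of these 4 receptors. It had 5 and 8 counts in control C2C12 cells and 12 and 20 counts in Septin9-deficient ones, and it passed the filter in these cells only through the Septin9-deficient samples. In primary myoblasts Rarb had 22 and 18 counts in controls and 28 counts in each Septin9-deficient sample. In both cell types the Septin9-deficient samples lay above the controls without overlap, at few reads. The exons of Rarb overlap those of Top2b and Gm48162 on the opposite strand, with largest single overlaps of 1429 and 227 bases. Whether strand was used in counting is not given in the sources used here, so the counts of Rarb are uncertain.

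**Figure D1:**
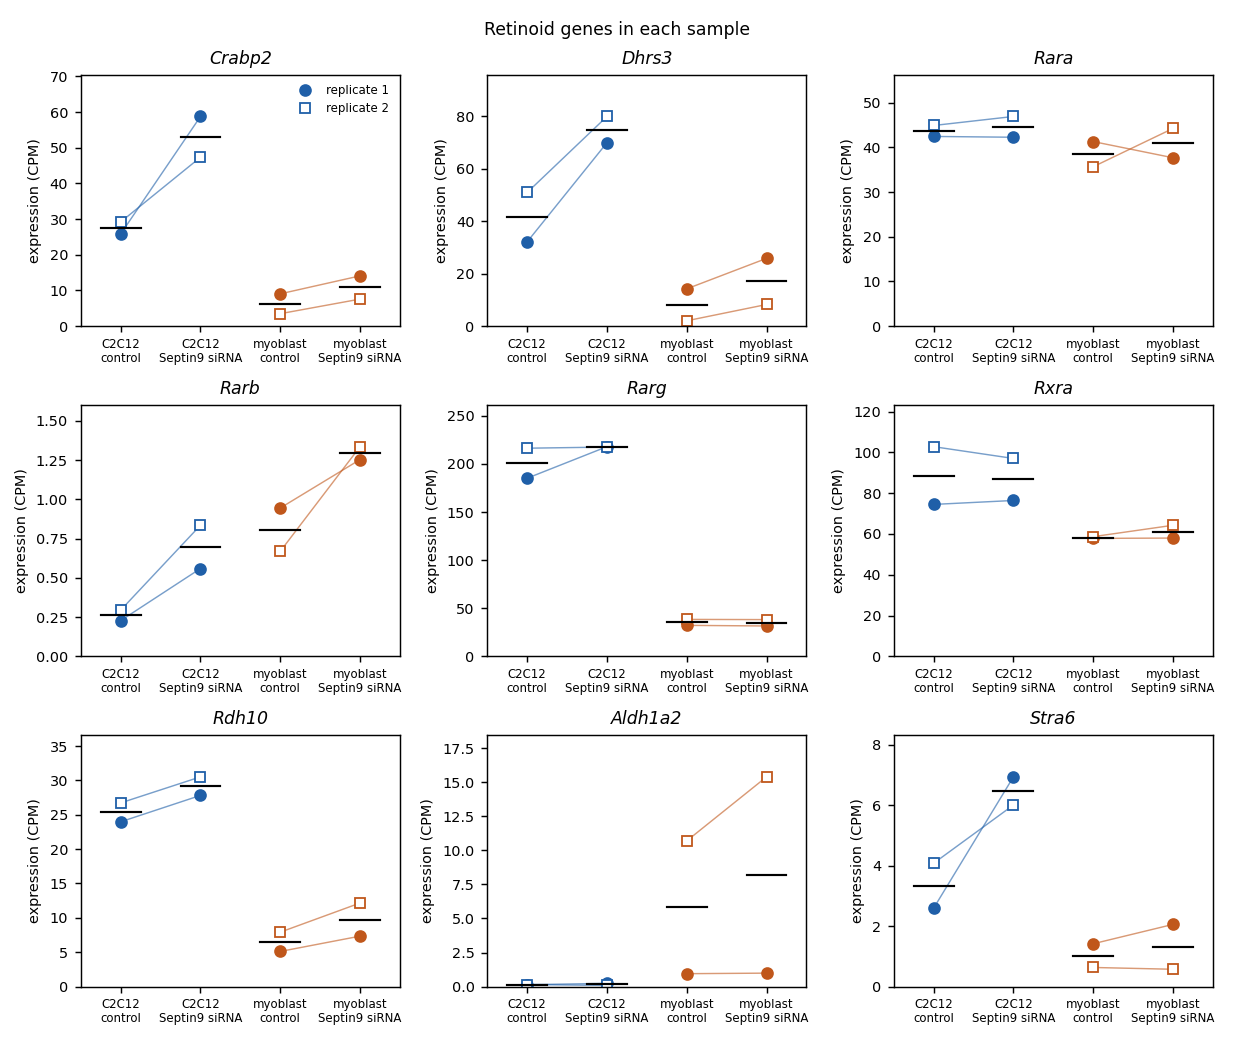
Expression in CPM (y axis, linear, from 0) of the 9 retinoid genes in control and Septin9-deficient C2C12 cells (blue) and primary myoblasts (orange); circles are replicate 1, squares replicate 2, thin lines join the samples of a replicate and black bars are group means (n = 2). Crabp2 and Dhrs3 go up along all 4 lines, Rara, Rarg and Rxra change less than these, and Aldh1a2 is separated by replicate in primary myoblasts.

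By the thresholds of the study (adjusted p-value below 0.05 and a fold change of at least 1.5 either way), Crabp2, Dhrs3 and Stra6 were called in C2C12 cells, each as higher. That is 3 of 8 members tested, beside 1.57% of all genes called and 0.828% called higher. In primary myoblasts Crabp2 and Dhrs3 were called as higher, which is 2 of 9 members beside 3.17% of all genes called and 2.87% called higher. Both Septin9-deficient samples lay above both controls for 6 of the 8 members in C2C12 cells, beside 13.3% of all genes, and for Rarb alone of the 9 in primary myoblasts, beside 12.5%. In primary myoblasts Crabp2 was not called with RLE size factors, with library size alone or by DESeq2 with the block, each of which called Dhrs3. In C2C12 cells Stra6 was not called by DESeq2 with the block, without replicate 1 or in 1 fit of 8 samples, and in the latter Dhrs3 was not called either. Crabp2, Dhrs3, Rarb and Rdh10 were higher in 4 of 4 replicate pairs, as were 12.7% of the genes tested in both cell types. Rara, Rarg, Rxra, Aldh1a2 and Stra6 each had at least 1 pair in the other direction. Since the members were chosen on this change, and Rarb passed the filter in C2C12 cells only through the Septin9-deficient samples, nothing is read from any of these counts and shares. The difference of the change between the cell types (primary myoblasts minus C2C12 cells, log2) was -0.11 (SE 0.22) for Crabp2, 0.35 (SE 0.28) for Dhrs3, 0.37 (SE 0.15) for Rdh10 and -0.64 (SE 0.44) for Stra6. For Dhrs3 it was 1.16 without primary myoblast replicate 1 and -0.002 without replicate 2, for Crabp2 it ranged from -0.34 to 0.20 with a replicate left out, and for Stra6 it ranged from -1.11 to -0.25.

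**Figure D2:**
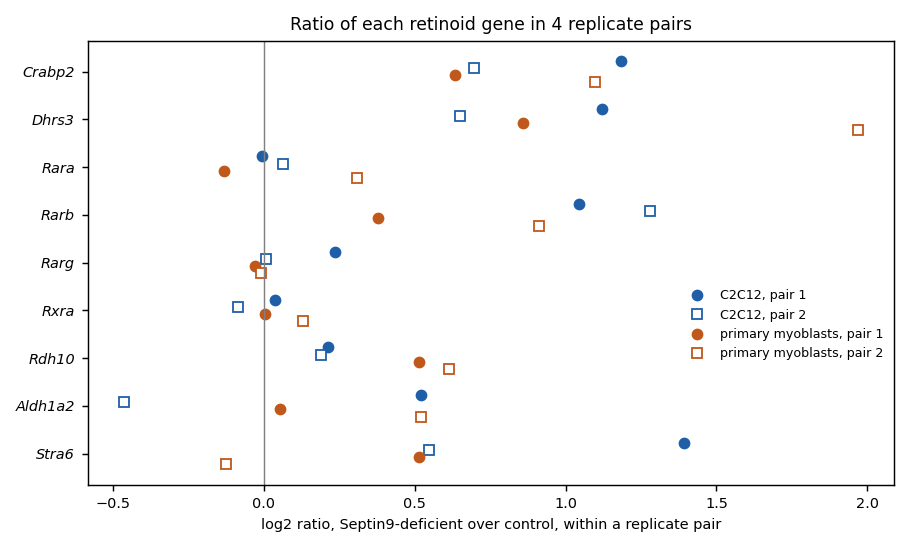
Log2 ratio of Septin9-deficient to control CPM (x axis; prior count of 2) for each retinoid gene (y axis) in the 2 replicate pairs of C2C12 cells (blue) and of primary myoblasts (orange); circles are pair 1 and squares pair 2. All 4 points of Crabp2 and Dhrs3 lie between 0.63 and 1.97, and the points of Rarg and Rxra lie between -0.08 and 0.24.

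The control samples show which part of the pathway each cell type had without Septin9 siRNA. They had been transfected too, with the siRNA that has no target, and were collected at the same times. These samples are shared with the comparisons above. Levels are compared between genes per length, as CPM per kilobase of exon (mean ± SD, n = 2). The length merges the exons of all transcripts of a gene. A level is therefore too low where a shorter transcript is expressed, and the order of genes is approximate. In control C2C12 cells Rarg was the highest of the 9 genes with 47.1 ± 5.17, followed by Crabp2 with 20.8 ± 1.79, Rxra with 16.2 ± 3.67 and Dhrs3 with 14.2 ± 4.54. Rara had 10.0 ± 0.40 and Rdh10 6.10 ± 0.47. Only the replicate ranges of Rxra and Dhrs3 overlapped among neighbours in this order. Stra6 with 0.57 ± 0.18, Aldh1a2 with 0.063 ± 0.0033 and Rarb with 0.050 ± 0.0090 were far below the others.

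In control primary myoblasts the order differed, and 3 receptors stood at its top. Rxra had 10.7 ± 0.11 CPM per kilobase, Rara 8.82 ± 0.91 and Rarg 8.28 ± 1.03. Crabp2 had 4.75 ± 2.98, Dhrs3 2.78 ± 2.94, Aldh1a2 2.57 ± 3.05, Rdh10 1.57 ± 0.48, Stra6 0.18 ± 0.095 and Rarb 0.15 ± 0.037. The replicate ranges overlapped for Rara and Rarg, for each pair of neighbours from Crabp2 down to Rdh10, and for Stra6 and Rarb, so these neighbours did not differ beyond their spread.

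**Figure D3:**
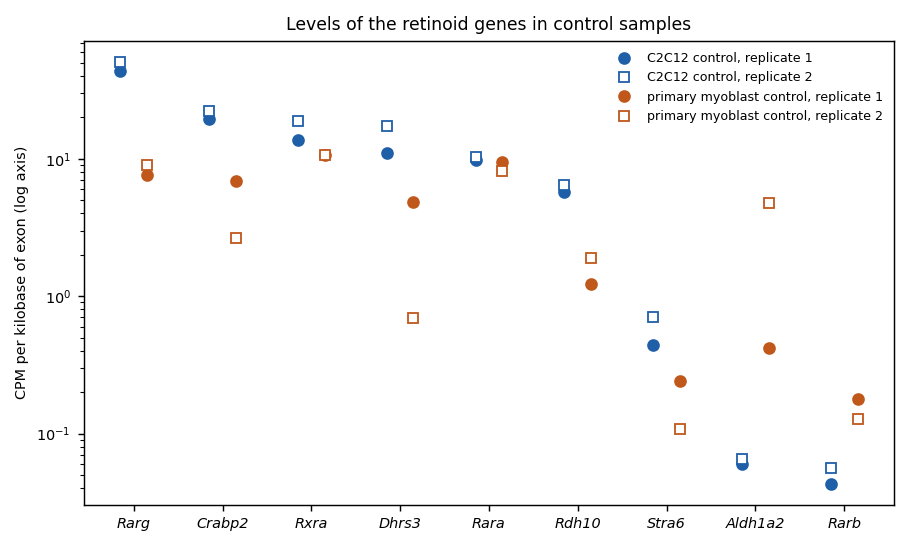
CPM per kilobase of exon (y axis, log scale) of the 9 retinoid genes (x axis, ordered by their mean in C2C12 cells) in the 2 control replicates of C2C12 cells (blue) and of primary myoblasts (orange); circles are replicate 1 and squares replicate 2. All 9 genes are separated between the cell types, Rara by the least, and Dhrs3 and Aldh1a2 are spread widely between the primary myoblast replicates.

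Between the controls, 4 of the 9 genes passed the thresholds, beside 33.3% of all genes tested, by the quasi-likelihood test of edgeR with p-values adjusted by Benjamini-Hochberg. Of these 1 was higher and 3 were lower in primary myoblasts, beside 17.5% and 15.8% of all genes. The control replicates of the cell types did not overlap for 9 of 9 genes, beside 75.1% of all genes. Rarg was lower in primary myoblasts by a log2 fold change of -2.50 (SE 0.18, adjusted p = 0.0037), a 5.65-fold difference. Rdh10 was lower by a log2 fold change of -1.95 (SE 0.27, adjusted p = 0.0103) and Crabp2 by -2.13 (SE 0.48, adjusted p = 0.0283). Aldh1a2 was higher in primary myoblasts, with 310 counts over the 2 controls against 7 in C2C12 cells, a ratio of 43.4 (95% interval 20.8 to 108.8, counting error only), and an adjusted p of 0.0414. Of these 310 counts 288 came from replicate 2, and without that sample the log2 fold change of Aldh1a2 was 2.69 instead of 5.32 and the adjusted p was 0.0562.

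Dhrs3 was at a log2 fold change of -2.35 (SE 0.89, adjusted p = 0.0988) between the controls, its primary myoblast replicates being far apart. It passed the test without either primary myoblast control, with -4.35 (adjusted p = 0.0052) without replicate 1 and -1.55 (adjusted p = 0.0309) without replicate 2. Stra6 with -1.70 (adjusted p = 0.0616), Rarb with 1.60 (adjusted p = 0.0587) and Rxra with -0.60 (adjusted p = 0.0704) did not pass. With DESeq2, Dhrs3 (adjusted p = 0.0082) and Stra6 (adjusted p = 0.0446) did. Rxra passed without the filter (adjusted p = 0.0314) and in 1 fit of 8 samples (adjusted p = 0.0421), as did Rarb in that fit (adjusted p = 0.0278). Rara, at -0.17 (95% interval -0.47 to 0.13), had the smallest difference of the 9 genes. This interval takes the log2 fold change to vary normally with its SE, and with 2 samples per group it is too narrow. When 1 C2C12 control was left out, Rarg alone among the 9 genes passed the test.

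Some of the genes that make or bind retinoic acid differed widely between the primary myoblast replicates, namely Aldh1a2, Aldh1a3 and Crabp1. Aldh1a1 and Fabp5, of the same classes, did not stand apart, with 0.82 and 0.59 CPM of Aldh1a1 and 69.0 and 82.7 CPM of Fabp5 in control replicates 1 and 2. Aldh1a3, a further enzyme that makes retinoic acid, was at 0.21 and 0.54 CPM in the control and Septin9-deficient samples of replicate 1 and at 11.2 and 15.4 CPM in those of replicate 2. Crabp1, the paralogue of Crabp2, was at 0.56 and 0.85 CPM in replicate 1 and at 17.6 and 22.9 CPM in replicate 2. Aldh1a2, Aldh1a3 and Crabp1 were thus all high in replicate 2, whereas Crabp2 and Dhrs3 were low there.

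Fibroblast markers went along with the replicate. Pdgfra, a receptor of fibro-adipogenic cells, was at 1.03 and 0.89 CPM in replicate 1 and at 31.7 and 32.0 CPM in replicate 2. Col1a1 was at 6.83 and 4.83 CPM in replicate 1 and at 249 and 378 CPM in replicate 2, and Dcn at 0.26 and 0.31 against 13.3 and 16.1 CPM. The 8 fibroblast markers summed to 359 and 327 CPM in replicate 1 and to 848 and 1012 CPM in replicate 2, beside 2405 to 3116 CPM in C2C12 cells, with Col3a1 as the main contributor. Lum and Dpt, further fibroblast markers, were at or below 0.74 CPM in every sample. The 8 myocyte markers summed to 11600 and 17230 CPM in replicate 1 and to 3203 and 8675 CPM in replicate 2. Markers of pericytes and smooth muscle summed to 9.79 and 10.5 CPM in replicate 1 and to 56.1 and 33.5 CPM in replicate 2, and those of endothelial, immune, glial and fat cells to at most 4.77 CPM each. The part of other cells, and of the stage of the culture, in the levels of the retinoid genes was not tested.

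**Figure D4:**
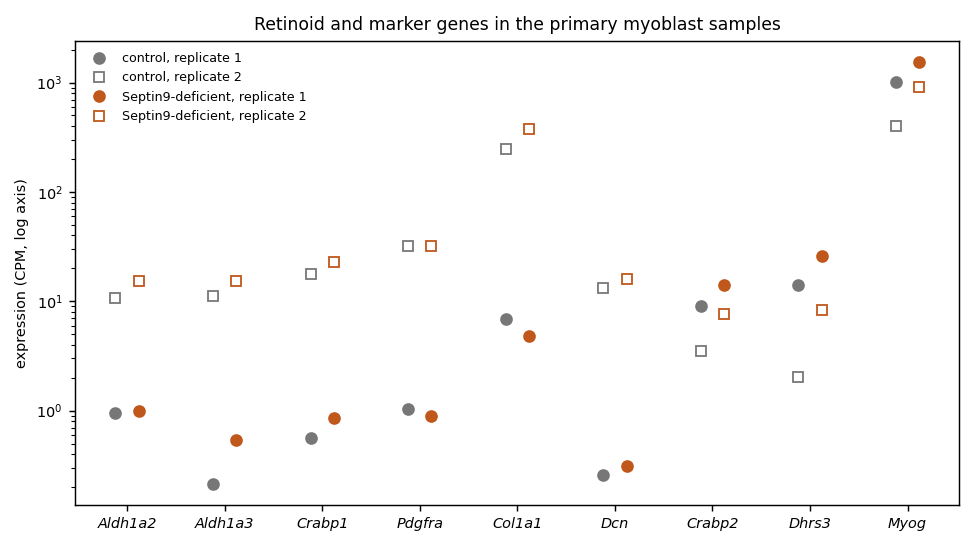
Expression in CPM (y axis, log scale) of retinoid genes, of the fibroblast markers Pdgfra, Col1a1 and Dcn and of the myocyte marker Myog (x axis) in the 4 primary myoblast samples; grey is control, orange Septin9-deficient, circles replicate 1 and squares replicate 2. From Aldh1a2 to Dcn the squares lie above the circles, with Pdgfra at 31.7 and 32.0 CPM against 1.03 and 0.89 CPM; for Crabp2, Dhrs3 and Myog each square lies below the circle of the same colour.

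The remaining pathway was followed with 53 other retinoid genes listed by function: storage and transport, binding, interconversion of retinol and retinal, synthesis, breakdown, receptors, coregulators and target genes. In C2C12 cells 29 of them were tested, and 1 passed the thresholds after Septin9 siRNA, which is 1 of 29 beside 1.57% of all genes. Their median log2 fold change was -0.05, beside 0.00 for all genes tested. In primary myoblasts 32 were tested, of which 2 rose and 1 fell, beside 2.87% and 0.298% of all genes, with a median of 0.15 beside 0.01 for all genes.

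Tgm2, a transglutaminase that retinoic acid induces, was called higher in both cell types. It was at 21.3 and 83.2 CPM in control C2C12 cells and at 45.7 and 116 CPM in Septin9-deficient ones, a log2 fold change of 0.74 (SE 0.097, adjusted p = 8.03e-05). In primary myoblasts Tgm2 had 4 and 44 counts in controls and 18 and 72 counts after siRNA, a log2 fold change of 1.33 (SE 0.37, adjusted p = 0.0424). The ratio was above 1 in 4 of 4 pairs, but the groups overlapped in both cell types, since the Septin9-deficient sample of replicate 1 was below the control of replicate 2. Without replicate 1 the call of Tgm2 in C2C12 cells was lost (0.48, adjusted p = 0.264), as it was by DESeq2 with the block (adjusted p = 0.19). In primary myoblasts the call was lost in 6 of 9 alternatives, namely with RLE size factors, library size alone, no block, DESeq2 with the block (adjusted p = 0.515), DESeq2 on the batch-corrected counts and 1 fit of 8 samples, and the log2 fold change was 2.19 without replicate 2.

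Cyp26b1, a retinoic acid hydroxylase that clears the ligand, fell in primary myoblasts, from 27.1 to 15.5 CPM in replicate 1 and from 7.88 to 2.53 CPM in replicate 2, a log2 fold change of -1.11 (SE 0.18, adjusted p = 0.0011). Its replicates again lay far apart, and the Septin9-deficient sample of replicate 1 was above the control of replicate 2. In C2C12 cells Cyp26b1 was between 4.78 and 5.92 CPM in all 4 samples, with a log2 fold change of 0.05 (SE 0.18, adjusted p = 0.932). The difference between the cell types was -1.16 (SE 0.29) and did not pass the test of the interaction term (adjusted p = 0.343). It did pass without C2C12 replicate 1 (-1.42, adjusted p = 0.0020), without primary myoblast replicate 1 (-1.67, adjusted p = 0.00046) and without primary myoblast replicate 2 (-0.85, adjusted p = 0.0381). In the test of all 8 samples edgeR called 0 of 17918 genes, 1469 had an unadjusted p below 0.05, and DESeq2 called 21. Cyp26a1 and Cyp26c1, the other hydroxylases of this family, had at most 11 counts in any sample.

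Rxrg, an RXR known for its expression in skeletal muscle, had 0 counts in each C2C12 sample. In primary myoblasts Rxrg was at 22.5 and 8.55 CPM in controls and at 28.5 and 15.7 CPM after siRNA, a log2 fold change of 0.59 (SE 0.15, adjusted p = 0.0254) that lies at the threshold and lost its call without replicate 2 (0.34, adjusted p = 0.277). Rxrg also lost its call in 6 other alternatives, among them RLE size factors (adjusted p = 0.0865) and DESeq2 with the block (adjusted p = 0.287). Below the fold threshold, 3 of the 29 genes had an adjusted p under 0.05 in C2C12 cells, as had 5.19% of all genes: Adh7 (-0.31, adjusted p = 0.0331) and Rdh11 (-0.30, adjusted p = 0.0185), which interconvert retinol and retinal, and Rai14 (0.29, adjusted p = 0.0103). In primary myoblasts this held for 1 of 32, beside 1.82% of all genes, namely Fabp5 (-0.48, adjusted p = 0.0235), a fatty acid binding protein that also binds retinoic acid.

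**Figure D5:**
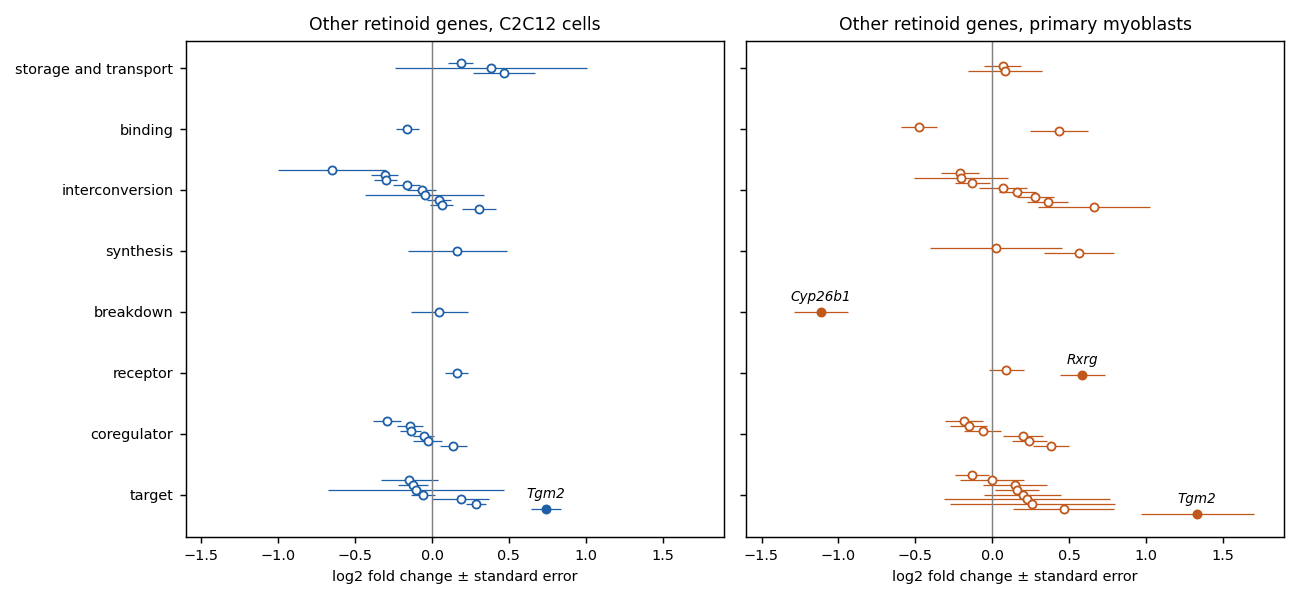
Log2 fold change ± SE (x axis) after Septin9 siRNA of the other retinoid genes that were tested, by class (y axis), in C2C12 cells (left, 29 genes) and primary myoblasts (right, 32 genes); filled points passed the thresholds. Tgm2 is filled in both panels, and Cyp26b1 at -1.11 and Rxrg at 0.59 are filled in primary myoblasts.

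Between the controls of the cell types, 14 of 31 other retinoid genes tested passed the thresholds, 6 higher and 8 lower in primary myoblasts, beside 33.3% of all genes. Rxrg had 0 counts in control C2C12 cells and 755 in control primary myoblasts (adjusted p = 0.0096 by the quasi-likelihood test of edgeR). With 3 counts over the group in place of 0 the ratio was 246.5. The exact lower 95% limit for 0 counts was 200 (counting error only). Aldh1a1, which makes retinoic acid, had 1 count in control C2C12 cells and 35 in primary myoblasts, a ratio of 34.3 (95% interval 5.76 to 1392, counting error only). The coactivator Ncoa1 (log2 fold change 1.68), the corepressor Nrip1 (0.96) and the dehydrogenases Dhrs4 (0.80) and Rdh13 (0.63) were also higher in primary myoblasts.

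Lower in primary myoblasts were Tgm2 (log2 fold change -5.80, adjusted p = 0.0205), Adh7 (-3.71, adjusted p = 0.0030), Rdh12 (-2.17), Dhrs7 (-1.79), Rdh11 (-1.06) and Rdh14 (-0.71), and the target genes Meis2 (-1.98) and Meis1 (-1.73). Of 9 genes tested for retinol and retinal interconversion, 5 were lower and 2 higher in primary myoblasts, beside 15.8% and 17.5% of all genes. Of these 14, Adh7, Dhrs7 and Rxrg were called without C2C12 control replicate 1, and Adh7 alone without replicate 2. Per kilobase, genes among the highest of each class in the C2C12 controls were Dgat1 (8.66) and Rbp7 (0.40) for storage and transport, Fabp5 (16.5) and Crabp1 (0.30) for binding, Rdh14 (16.8), Rdh11 (13.3) and Rdh5 (11.0) for interconversion, and Aldh1a3 (0.30) for synthesis, in CPM. They also included Cyp26b1 (1.00) for breakdown, Rxrb (10.6) for the other receptors, Ncor1 (13.6) and Ncoa3 (4.10) for the coregulators, and Rai14 (19.2), Tgm2 (11.4) and Meis2 (4.14) for the target genes. In the primary myoblast controls genes among the highest per kilobase were Dgat1 (7.64), Fabp5 (21.3), Dhrs4 (12.8), Aldh1a3 (1.24), Cyp26b1 (3.27), Rxrb (8.50) and Rai14 (18.6). The counts of Rxrb and Rbp7 are uncertain, since further copies of these genes are listed.

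Crabp2 and Dhrs3 had similar profiles over the 8 samples, with a Pearson correlation of log2 CPM of 0.97 that is given as a description, since the samples share the difference between the cell types and between the primary myoblast replicates. Among 13545 other genes, those most like Crabp2 were Lrch4 (0.99), Gm20605 (0.99), Chchd5 (0.98), Galr2 (0.98) and Tapbpl (0.98). Those most like Dhrs3 included Carns1 (0.99), Seh1l (0.99), Khk (0.98) and Smpd1 (0.98). A high correlation here did not mean a like change after siRNA. Ratios of Septin9-deficient to control within pairs were 1.07 to 1.14 for Lrch4 and 1.37 to 1.91 for Galr2. For Seh1l they were 1.025 to 1.125, and for Khk 1.12 to 1.66.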

How the data were processed

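Poly(A) RNA of 8 samples was sequenced. Per the study's methods and the submitters' processing notes, the authors mapped reads to GRCm38.p6 with STAR 2.7.2 and deposited raw counts per gene from featureCounts 2.0.1, with no scaling. A normalized signal for each cell type was deposited too, in which ComBat-Seq had removed batch effects before division by DESeq2 size factors; its whole counts were recovered in 100% of values (within 0.1 reads) and used in 1 alternative. In the raw counts 16 broken lines holding 5 genes were left out.

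The 9 members and the gene lists were chosen with earlier results of these data known. Samples were grouped by the titles in the labels. Each cell type was fitted alone with edgeR 4.0.16 in R 4.3.3 (filterByExpr, TMM, quasi-likelihood test), the replicate number being a block, since the methods state independent experiments. Same-numbered samples deviated together (correlation 0.68 over 15814 genes for C2C12 cells and 0.82 over 17055 for primary myoblasts). Controls were compared without a block, and the interaction in a fit of 8 samples. P-values were adjusted by Benjamini-Hochberg over all genes tested, and calls needed an adjusted p below 0.05 and, except for the interaction, a fold change of at least 1.5 either way. Standard errors are the absolute log2 fold change over the square root of F. Pair ratios used log2 CPM with a prior count of 2. P-values rest on 2 samples per group, and intervals of count ratios are exact at 95%. Lengths are merged exons of GENCODE release M21, a later release than the study counted with, and positions and promoters are from RefSeq on GRCm38.p6. Named other genes were those past the thresholds in any comparison and the 3 highest of each class in controls, and genes most alike were the 5 highest correlations among genes with a mean of at least 1 CPM. Some genes that these rules name are not reported here. In simulated data with 200 genes changed by 1.5 on the log2 scale, 91% were recovered in C2C12 cells, 92% in primary myoblasts, 94% between controls and 76% in the interaction. Of the genes called there, 3.7%, 5.15%, 1.57% and 5% in the same order had not been changed. Every simulated gene had the same random spread, and genes with few counts were left out. These shares therefore do not give the power for smaller changes or for genes whose replicates differ widely. Alternatives were RLE or library-size scaling, no filter, a minimum of 10 counts in each sample, no block, a block for controls, DESeq2 1.42.0, DESeq2 on the deposited batch-corrected counts, 1 fit of 8 samples, and each replicate left out. Tables, intervals and plots were made in Python 3.11.15 with pandas 2.3.3, numpy 2.4.6, matplotlib 3.10.9 and scipy 1.17.1.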

Additional observations from a re-analysis of the deposited data

Results flagged for a closer look

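Some genes went one way after Septin9 siRNA in both C2C12 pairs and the other way in both primary myoblast pairs. For Rarg the mean pair log2 ratio differed by -0.14 (primary myoblasts minus C2C12 cells), with ratios of 0.24 and 0.01 for C2C12 cells and -0.03 and -0.01 for primary myoblasts, all but 1 of them close to 0. For Rdh14 the mean pair ratio differed by 0.51, with -0.11 and -0.20 for C2C12 cells and 0.54 and 0.16 for primary myoblasts. For Nrip1 it differed by 0.26, with -0.03 and -0.01 for C2C12 cells and 0.14 and 0.33 for primary myoblasts. These opposite signs were not tested as such. By the interaction term of edgeR's quasi-likelihood test the difference was 0.52 for Rdh14 (adjusted p = 0.452) and 0.26 for Nrip1 (adjusted p = 0.661), and neither passed.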

How the results depend on the processing

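Under the 10 alternatives run in each cell type, the log2 fold change after Septin9 siRNA stayed above 0 for Crabp2 and Dhrs3. Both were chosen for their increase in these same samples, so nothing is read from the sign. In C2C12 cells the log2 fold change ranged from 0.70 to 1.18 for Crabp2 and from 0.65 to 1.12 for Dhrs3. In primary myoblasts the ranges were 0.63 to 1.12 and 0.86 to 2.02. The number of calls changed more. Without the replicate block no gene was called in either cell type (0 instead of 248 in C2C12 cells, where 3 of the 9 retinoid genes had been called, and 0 instead of 542 in primary myoblasts), so every call after siRNA rests on the pairing. By edgeR without the block 372 and 378 genes had an unadjusted p below 0.05. In C2C12 cells DESeq2 with the block called 99 genes and 0 other retinoid genes, DESeq2 on the batch-corrected counts 123, and 1 fit of 8 samples 83 with 1 of the 9 genes. Without a replicate 98 to 181 genes, 2 to 3 of the 9 genes and 0 to 1 other retinoid genes were called. In primary myoblasts RLE called 260 genes and library size alone 206, DESeq2 with the block 230 and DESeq2 on the batch-corrected counts 331. RLE, library size and DESeq2 with the block each called 1 of the 9 genes and 1 other retinoid gene, and the latter number was also 1 with the batch-corrected counts and with 1 fit. Of the calls, 491 were higher and 51 lower, against 225 and 35 with RLE and 165 and 41 with library size, which in C2C12 cells gave 195 and 116 instead of 131 and 117. Without a replicate 358 to 926 genes, 2 to 3 of the 9 genes and 2 to 4 other retinoid genes were called.

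Between controls 5699 genes were called, and 512 to 4760 without a replicate, with 1 to 6 of the 9 genes and 1 to 11 other retinoid genes. Without the filter 7 of the 9 genes were called, and with a replicate block 8 other retinoid genes. For the interaction DESeq2 called 21 genes against 0, and without a replicate 51 to 844 genes, 0 to 1 of the 9 genes and 0 to 4 other retinoid genes were called; Cyp26b1 passed in 3 of these 4 fits. In fits without a replicate a lone pair or sample is assumed to vary like the others. The cause of these changes was not tested. Under 30 counts per sample, as for Rarb, and Aldh1a2 in C2C12 cells, counting error limits what can be shown.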
